A study of Rattus norvegicus with 16 samples.

Results

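The genes described here are 10 markers of the cells that surround cardiac muscle cells: fibroblasts, and the mural cells (pericytes and smooth muscle cells) that wrap small vessels. They were chosen by name, with earlier results of these data known. All 10 were measured, each by 1 probe set, among the 17245 genes of the array that were tested. They fall into 3 classes by their known roles. Thy1, Fap and Cilp are treated as markers of activated fibroblasts, Pdgfra, Tcf21 and Ddr2 as markers of resident fibroblasts, and Pdgfrb, Mcam, Rgs5 and Cspg4 as markers of mural cells. The classes are a convention, since Thy1 is also carried by quiescent fibroblasts and neurons, Mcam by endothelium, and Ddr2 and Pdgfra by activated fibroblasts.

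Total RNA of the right ventricular wall was measured on 16 Affymetrix arrays, taken from male rats of the Wistar strain that weighed 160 to 180 g. There were 5 arrays labelled RVF+, 4 labelled RVF and 7 labelled CON, read here as controls. The treatment protocol covers banding of the pulmonary artery, which loads the right ventricle with pressure, and sham surgery, without saying which sample had which, and the labels give no time after surgery. The series title concerns right ventricular failure under chronic pressure load; none of these names is spelled out in the labels, and all are kept as given. Whether each sample of a group is a different animal is not stated, and p-values therefore measure only the spread among samples, part or all of which could be technical. Arrays carry the group name and their title's number. Values are log2 intensities after RMA, a method that corrects background, brings all arrays to a common distribution and summarises the probes of each probe set.

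Cardiac fibroblasts maintain the matrix of the heart in the resting state, when they carry the receptors PDGFRα and DDR2 and the transcription factor TCF21. Under mechanical load or injury they become activated, proliferate, lay down collagens and matricellular proteins, and take up surface proteins such as the protease FAP. Pericytes lie along capillaries and depend on PDGF-B from the endothelium, which they sense through PDGFRβ. The comparisons below ask which of these marker classes differed from control ventricles, and whether RVF+ and RVF differed from each other.

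The labelled tissue was checked by its cardiomyocyte markers: all 13 measured were at or above the median level of all genes, and Tnnt2, cardiac troponin T, lay between 12.06 and 12.50 (log2 intensity) over all arrays. One array, RVF+ 8, stood apart. Over all genes it differed from the mean of the CON arrays by 0.711 (root mean square, log2), while the remaining RVF+ and RVF arrays differed by 0.326 to 0.448. Its summed macrophage marker intensity of 6136 compared with 2190 to 3271 in the other RVF+ arrays. Values without RVF+ 8 are therefore given beside the results it touches.

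In RVF+ ventricles 6 of the 10 markers rose and 0 fell, and the same count of 6 rose and 0 fell in RVF ventricles, all by limma with Benjamini-Hochberg adjustment over all genes and a threshold of 0.05. The genes that rose were Thy1, Fap, Cilp, Pdgfrb, Mcam and Cspg4 in both comparisons, which share the CON arrays. Over all genes tested 14.1% rose and 13.6% fell in RVF+, and 8.86% rose and 8.29% fell in RVF. Pdgfra, Tcf21, Ddr2 and Rgs5 did not pass in either. Each of the 6 was above every CON array in all arrays of both groups, where 6.96% of all genes showed such a gap upward in RVF+ and 9.83% in RVF. These 6 calls held in each of the 23 alternatives to the processing, including the omission of any single array.

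**Figure D1:**
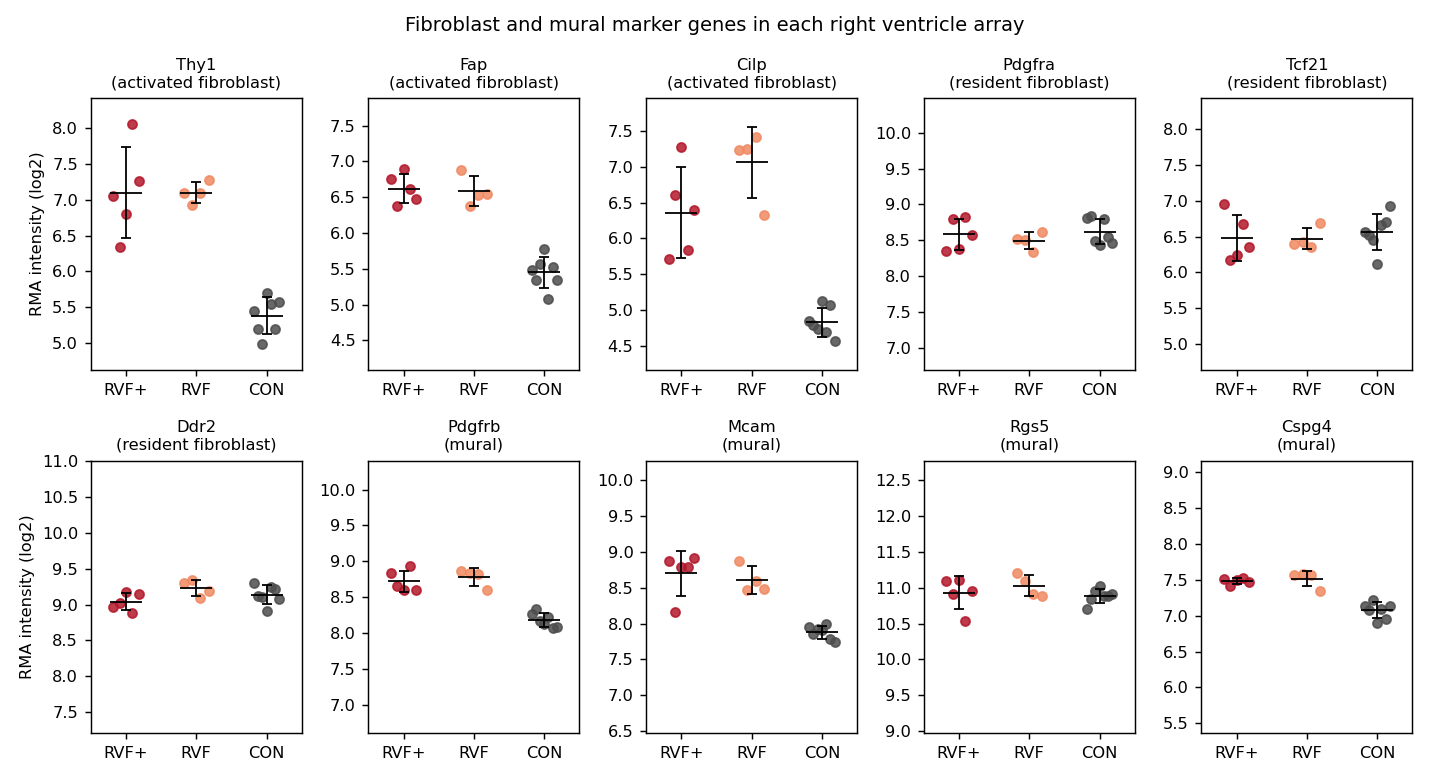
RMA intensity on the log2 scale (vertical axis, the same span in every panel) of each marker gene in the RVF+ (n = 5), RVF (n = 4) and CON (n = 7) arrays; points are arrays, and bars give the mean ± SD. Thy1, Fap, Cilp, Pdgfrb, Mcam and Cspg4 lie above all CON arrays in both groups, whereas Pdgfra, Tcf21, Ddr2 and Rgs5 overlap with CON.

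The activated fibroblast markers showed the largest differences of the 10 genes. Thy1, a glycoprotein anchored in the cell membrane that serves in adhesion, had log2 intensities of 8.05, 7.26, 7.05, 6.34 and 6.80 in RVF+ arrays 8 to 12 and 7.10, 6.92, 7.10 and 7.28 in RVF arrays 13 to 16. In CON it ran from 4.99 through a median of 5.45 to 5.70. All RVF+ and RVF arrays thus lay above all controls, and RVF+ was the more spread group, with 7.10 ± 0.63 (SD, n = 5) against 7.10 ± 0.15 (SD, n = 4) in RVF. Thy1 rose 3.29-fold in RVF+ (log2 difference 1.72 ± 0.21, mean ± SE here and below, limma adjusted p = 1.44e-05) and 3.3-fold in RVF (1.72 ± 0.22, adjusted p = 4.28e-05). Without RVF+ 8, its highest array, the difference in RVF+ was 1.48 ± 0.16 (adjusted p = 2.88e-06).

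Fap, a serine protease of the cell surface that marks activated fibroblasts, had 6.61, 6.48, 6.75, 6.38 and 6.89 in RVF+ arrays 8 to 12 and 6.88, 6.38, 6.53 and 6.54 in RVF arrays. The CON arrays ran from 5.08 through 5.49 to 5.77. RVF+ and RVF covered nearly the same range, clear of the controls. Fap rose 2.26-fold in RVF+ (1.18 ± 0.12, adjusted p = 2.84e-06) and 2.2-fold in RVF (1.13 ± 0.13, adjusted p = 1.05e-05).

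Cilp encodes a secreted matrix protein first described in cartilage, which is also made by cardiac fibroblasts. It had 5.84, 6.39, 5.71, 6.60 and 7.28 in RVF+ arrays 8 to 12 and 7.23, 7.25, 7.42 and 6.33 in RVF arrays. In CON it ran from 4.57 through 4.79 to 5.12. Both groups lay above the controls, and 3 of the 4 RVF arrays were close to the highest RVF+ array. Cilp rose 2.89-fold in RVF+ (1.53 ± 0.23, adjusted p = 0.000101) and 4.68-fold in RVF (2.23 ± 0.25, adjusted p = 9.92e-06). The CON means of Thy1, Fap and Cilp (5.38, 5.45 and 4.83) lay below 5.57, the median level of all genes, and their RVF+ and RVF means lay above it.

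The sequence upstream of Fap and Cilp is shown because both rose, in lower case with matches to the motifs searched in capitals. These are 250 bases before the annotated start, 5′ to 3′ on the gene's strand, from RefSeq on build GRCr8: Fap at chr3:67616092-67616341 (minus strand) and Cilp at chr8:74672198-74672447 (plus strand).
Fap: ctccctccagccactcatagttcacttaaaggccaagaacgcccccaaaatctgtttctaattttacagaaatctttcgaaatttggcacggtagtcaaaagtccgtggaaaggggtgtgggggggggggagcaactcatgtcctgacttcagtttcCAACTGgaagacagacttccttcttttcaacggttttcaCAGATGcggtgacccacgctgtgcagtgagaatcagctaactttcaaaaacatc
Cilp: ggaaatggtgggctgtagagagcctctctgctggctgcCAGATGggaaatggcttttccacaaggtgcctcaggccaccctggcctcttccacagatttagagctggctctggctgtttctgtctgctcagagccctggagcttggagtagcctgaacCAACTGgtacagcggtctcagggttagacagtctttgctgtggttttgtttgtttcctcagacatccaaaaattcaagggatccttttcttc
The motifs searched on both strands were the E-box CANNTG, bound by TCF21 and other basic helix-loop-helix factors, the GC box GGGCGG, the TATA box TATAAA, the CCAAT box CCAAT, the M-CAT core CATTCC, the AP-1 site TGANTCA and the CArG box. No match in these genes overlapped another. Each of the 2 sequences held 2 E-boxes, and CAACTG and CAGATG occurred in both. Of the 14117 upstream sequences of tested genes 60.7% held at least 1 E-box, so its presence is common. Sequences of 6 of the 10 markers were matched; Thy1, Ddr2, Pdgfrb and Mcam are named only.

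The resident fibroblast markers lay within the control range or close to it. Pdgfra, the receptor for PDGF-A and PDGF-C on fibroblasts, had 8.82, 8.57, 8.35, 8.80 and 8.37 in RVF+ arrays 8 to 12 and 8.52, 8.50, 8.33 and 8.62 in RVF arrays. In CON it ran from 8.43 through 8.55 to 8.84. The 3 groups overlapped, with 2 RVF+ arrays and 1 RVF array below all controls. Its log2 difference was -0.04 ± 0.11 in RVF+ (95% interval -0.26 to 0.18, adjusted p = 0.813) and -0.13 ± 0.11 in RVF (-0.37 to 0.10, adjusted p = 0.48).

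Tcf21, a transcription factor of the resident fibroblast, had 6.67, 6.36, 6.95, 6.18 and 6.24 in RVF+ arrays 8 to 12 and 6.39, 6.43, 6.35 and 6.69 in RVF arrays. The controls ran from 6.12 through 6.56 to 6.92 and covered all arrays but RVF+ 10, the highest. Its difference was -0.08 ± 0.14 in RVF+ (-0.38 to 0.21, adjusted p = 0.707) and -0.10 ± 0.15 in RVF (-0.41 to 0.21, adjusted p = 0.708). Ddr2, a receptor tyrosine kinase that senses fibrillar collagen, had 8.88, 9.15, 8.97, 9.02 and 9.18 in RVF+ arrays and 9.30, 9.34, 9.09 and 9.19 in RVF arrays, with 8.91, 9.12 and 9.30 as the lowest, median and highest in CON. The groups overlapped, with RVF+ 8 just below all controls and 2 of 4 RVF arrays, RVF 13 and RVF 14, just above them. Its difference was -0.10 ± 0.08 in RVF+ (-0.27 to 0.07, adjusted p = 0.402) and 0.09 ± 0.09 in RVF (-0.09 to 0.27, adjusted p = 0.541).

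Of the mural markers 3 of 4 rose in each comparison. Pdgfrb, the PDGF-B receptor of pericytes that fibroblasts also carry, had 8.94, 8.60, 8.83, 8.65 and 8.60 in RVF+ arrays 8 to 12 and 8.87, 8.83, 8.82 and 8.60 in RVF arrays, above a CON range of 8.07 to 8.33 with a median of 8.17. It rose 1.46-fold in RVF+ (0.55 ± 0.08, adjusted p = 7.43e-05) and 1.52-fold in RVF (0.60 ± 0.08, adjusted p = 8.96e-05). Its related receptor Pdgfra, given above, had differences of -0.04 and -0.13 in the same arrays.

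Mcam, an adhesion molecule of pericytes, smooth muscle and endothelium, had 8.79, 8.91, 8.88, 8.16 and 8.79 in RVF+ arrays 8 to 12 and 8.87, 8.47, 8.60 and 8.49 in RVF arrays. In CON it ran from 7.74 through 7.91 to 8.00. Array RVF+ 11 lay well below its group and still above all controls. Mcam rose 1.77-fold in RVF+ (0.82 ± 0.11, adjusted p = 5.21e-05) and 1.65-fold in RVF (0.72 ± 0.12, adjusted p = 0.000507).

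Cspg4, the NG2 proteoglycan of pericytes, had 7.53, 7.47, 7.51, 7.42 and 7.50 in RVF+ arrays 8 to 12 and 7.57, 7.58, 7.57 and 7.35 in RVF arrays, with 6.90, 7.10 and 7.22 as the lowest, median and highest in CON. The spread within RVF+ was 0.04 (SD, n = 5), the smallest of the 10 markers in that group. Cspg4 rose 1.33-fold in RVF+ (0.41 ± 0.07, adjusted p = 0.000299) and 1.36-fold in RVF (0.44 ± 0.07, adjusted p = 0.000498).

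Rgs5, a regulator of G protein signalling and one of the most used pericyte markers, was the mural gene that did not pass. It had 10.54, 10.96, 11.10, 10.91 and 11.11 in RVF+ arrays 8 to 12 and 11.21, 11.10, 10.92 and 10.89 in RVF arrays. The controls ran from 10.70 through 10.89 to 11.02, so the groups overlapped, with RVF+ 8 below all controls and 2 of 5 RVF+ arrays and 2 of 4 RVF arrays above them. Its difference was 0.04 ± 0.10 in RVF+ (-0.16 to 0.24, adjusted p = 0.816) and 0.14 ± 0.10 in RVF (-0.07 to 0.36, adjusted p = 0.385). Without RVF+ 8 the difference in RVF+ was 0.13 ± 0.08 (adjusted p = 0.252).

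The upstream sequences of Cspg4, which rose, and Rgs5, which did not pass, are set side by side with the same capitals: Cspg4 at chr8:66160692-66160941 (plus strand) and Rgs5 at chr13:84380827-84381076 (plus strand).
Cspg4: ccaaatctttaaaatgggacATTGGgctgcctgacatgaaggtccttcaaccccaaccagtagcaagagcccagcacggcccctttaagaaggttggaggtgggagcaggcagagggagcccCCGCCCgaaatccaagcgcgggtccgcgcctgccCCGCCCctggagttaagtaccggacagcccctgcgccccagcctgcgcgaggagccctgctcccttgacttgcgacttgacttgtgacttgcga
Rgs5: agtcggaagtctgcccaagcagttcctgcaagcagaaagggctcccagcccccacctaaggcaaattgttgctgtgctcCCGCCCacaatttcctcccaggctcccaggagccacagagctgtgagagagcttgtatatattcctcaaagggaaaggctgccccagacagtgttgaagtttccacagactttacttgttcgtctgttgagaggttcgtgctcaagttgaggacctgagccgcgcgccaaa
Cspg4 held 2 GC boxes and 1 CCAAT box, and Rgs5 held 1 GC box, against 46.4% of upstream sequences of tested genes with a GC box and 35% with a CCAAT box. The G and C content was 62% in Cspg4 and 54.4% in Rgs5. Matches describe the letters of these windows and were not tested for any use in the tissue.

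**Figure D2:**
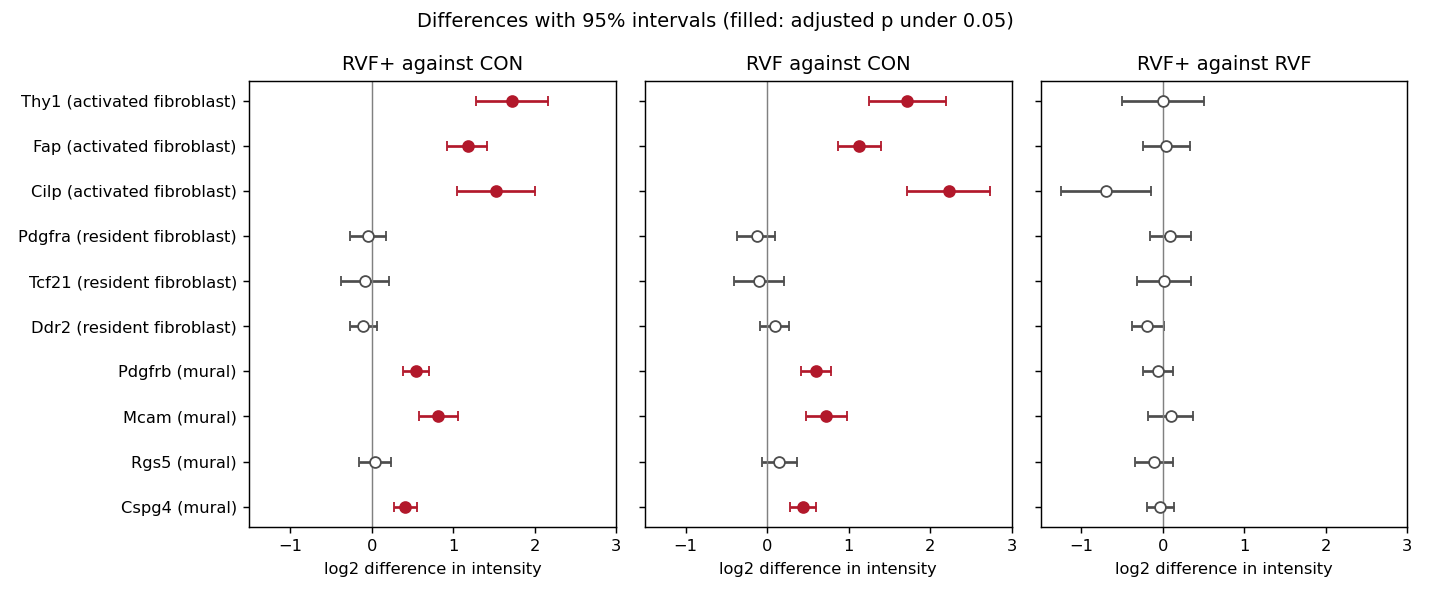
Log2 differences in intensity (horizontal axis) with 95% intervals for the 10 markers, in RVF+ against CON, RVF against CON and RVF+ against RVF; filled points have an adjusted p under 0.05. The intervals of the 6 filled genes start at 0.27 or above in both comparisons with CON, and no point is filled between RVF+ and RVF.

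The classes kept their order in every RVF+ and RVF array. Averaged over its 3 genes, the activated class differed from the CON mean by 1.48 ± 0.23 in RVF+ (SD, n = 5), with the lowest array at 1.22, and by 1.69 ± 0.16 in RVF (SD, n = 4), with the lowest at 1.50, against a highest CON array of 0.31. The resident class averaged -0.07 ± 0.08 in RVF+ and -0.05 ± 0.10 in RVF, inside the CON range of -0.29 to 0.13. The mural class lay between them at 0.45 ± 0.11 in RVF+ and 0.48 ± 0.12 in RVF, with lowest arrays of 0.28 and 0.33 and a highest CON array of 0.06. These means are descriptions without a test. The median difference over all genes was -0.012 in RVF+ and -0.009 in RVF.

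**Figure D3:**
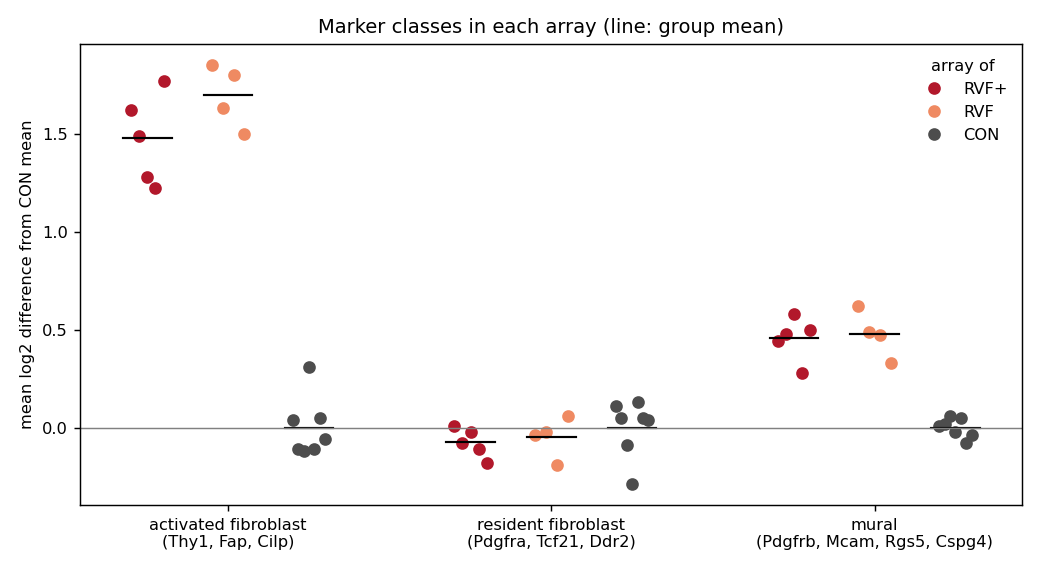
Mean log2 difference from the CON mean (vertical axis) over the genes of each marker class, 1 point per array, with a line at the group mean. Every RVF+ and RVF array lies at 1.22 or above for the activated class and at 0.28 or above for the mural class, while those of the resident class lie between -0.19 and 0.06.

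In the 6 genes that rose, the lowest bound of any 95% interval was 0.27 in RVF+ and 0.28 in RVF. For the 4 that did not pass, the highest bound was 0.24 in RVF+ and 0.36 in RVF, which is at most a 1.18-fold and a 1.28-fold rise. The difference between a gene that passed and one that did not was not itself tested. In whole tissue, more cells of a type and more RNA per cell cannot be told apart.

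RVF+ and RVF were not distinguished by any of the 10 markers. By limma 0 of the 10 were called in either direction, as were 0% of all genes, while 1242 genes (7.2%) had an unadjusted p under 0.05. Of all genes the alternatives called at most 3, without RVF+ 12. Thy1 differed by -0.0028 ± 0.24 (95% interval -0.50 to 0.50), and by -0.24 ± 0.17 without RVF+ 8 (adjusted p = 0.82). Fap differed by 0.04 ± 0.13 (-0.24 to 0.33), Pdgfrb by -0.06 ± 0.09 (-0.25 to 0.13) and Mcam by 0.10 ± 0.13 (-0.18 to 0.37). For Cspg4, Rgs5, Pdgfra and Tcf21 the intervals were -0.20 to 0.14, -0.34 to 0.13, -0.16 to 0.34 and -0.32 to 0.35. These intervals are not adjusted for the number of genes tested. Differences inside them, and larger ones too, could have failed to pass with 5 and 4 arrays.

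Cilp was the marker with the largest difference between RVF+ and RVF. It was lower in RVF+ by a log2 difference of -0.70 ± 0.26 (95% interval -1.25 to -0.14, unadjusted p = 0.0164, limma adjusted p = 0.587), which fails the correction. The groups overlapped, with 2 of 5 RVF+ arrays below all RVF arrays and the lowest RVF array, RVF 16, at 6.33. Over the 23 alternatives the difference ran from -0.94 to -0.53 and the adjusted p from 0.103 to 0.979. Ddr2 was the next, at -0.19 ± 0.09 (-0.38 to 0.01, adjusted p = 0.705).

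Within groups the markers showed no clear blocks of shared variation, though correlations over 16 arrays are imprecise and were not tested. Deviations of each array from its group mean were compared over the 16 arrays for all 45 pairs of markers, where all values of an array share its RNA and labelling. The median Pearson correlation was 0.02, and 5 pairs reached 0.5 in size. Pdgfrb and Cspg4 varied together most, at 0.53 (0.55 without RVF+ 8, where Thy1 and Mcam had 0.57 and Fap and Rgs5 0.54). Cilp and Tcf21 varied most in opposite directions, at -0.75, or -0.74 without RVF+ 8. Pdgfra ran against Rgs5 (-0.64) and Fap (-0.54), and Thy1 against Rgs5 (-0.53), a value that was 0.05 without RVF+ 8. The activated pair Thy1 and Fap had 0.07, and the resident pair Pdgfra and Tcf21 had 0.01.

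The genes whose deviations were most like each marker's over the same 16 arrays were sought among those with a mean of 5.57 or more. For Thy1 they were Snap29, Npc2 and Ptpn6 (each 0.91, and 0.79, 0.79 and 0.86 without RVF+ 8). For Fap they were Gxylt1, Gyg1 and Snapc3 (each 0.87), and for Cilp Myocd (0.89), Cavin4 (0.89) and Efr3a (0.87). Pdgfra went with Gmppa (0.83), Lrp1 (0.79) and Plcl2 (0.79), Tcf21 with Xdh (0.82), Csnk1g2 (0.82) and Sema3f (0.81), and Ddr2 with Thap11 (0.84), Spsb3 (0.82) and Ccdc126 (0.82). Pdgfrb went with Nvl (0.88), Tubb2a (0.87) and Ndst2 (0.87), and Mcam with Tpbg (0.87), Nucb1 (0.87) and Ubn1 (0.86). Cspg4 went with Dhrs3 (0.87), B4galt3 (0.80) and Farp1 (0.80). Rgs5 went with Ccdc62 (0.90), Sptbn1 (0.88) and Schip1 (0.86), which had 0.82, 0.78 and 0.70 without RVF+ 8. No other marker of the 10 was among them, and as the highest of very many values they are descriptions only.

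Other genes of the same cell types were counted from lists written down beside the markers, with earlier results of these data known. The counts are therefore descriptions and no independent support for the classes. Over all genes 14.1% rose and 13.6% fell in RVF+, and 8.86% rose and 8.29% fell in RVF. These shares stand beside every list count below. Of 15 other activated fibroblast genes 14 rose and 0 fell in RVF+, with a median of 1.05 (13 and 0.91 without RVF+ 8), and 10 rose and 0 fell in RVF, also with a median of 1.05. Postn, the matricellular protein periostin, rose by 3.37 ± 0.34 in RVF+ (adjusted p = 2.69e-06) and 3.25 ± 0.36 in RVF (adjusted p = 1e-05). The growth factor binding protein Ltbp2 rose by 2.74 ± 0.23 and 3.02 ± 0.25, Ccn2 by 2.04 ± 0.16 and 2.31 ± 0.17, and the fibronectin gene Fn1 by 1.73 ± 0.15 and 1.10 ± 0.16 in the same order of comparisons. The gene of this list that did not pass in RVF+ was Ccn4, at -0.04, named after its value was seen.

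Of 16 other resident fibroblast genes 6 rose and 1 fell in RVF+, with a median of 0.23 (9, 1 and 0.36 without RVF+ 8), and 5 rose and 0 fell in RVF, with a median of 0.16. Genes of this list thus rose in a larger share than all genes (14.1% in RVF+ and 8.86% in RVF). This was unlike Pdgfra, Tcf21 and Ddr2, none of which passed, and the contrast was not tested. Pi16, a marker of a fibroblast population around vessels, rose by 1.38 ± 0.26 in RVF+ and 1.67 ± 0.27 in RVF, the microfibril gene Mfap5 by 1.32 ± 0.12 and 1.18 ± 0.13, and the calcification inhibitor Mgp by 0.67 ± 0.08 and 0.77 ± 0.08. Dpep1, a dipeptidase, fell by 0.62 in RVF+ (adjusted p = 0.0118) and had 0.06 in RVF. Fbln1, a fibulin of the matrix, rose by 0.56 ± 0.14 in RVF+ and 0.66 ± 0.15 in RVF. Dcn, Gsn, Scara5, Cd34, Smoc2, Htra3, Medag, Entpd2 and Vit did not pass in either comparison in the main setting. Their differences in RVF+ were 0.04, -0.10, 0.13, 0.24, 0.00, 0.22, 0.45, -0.25 and -0.07. In RVF they were 0.04, -0.01, -0.10, 0.21, 0.10, 0.08, 0.29, -0.17 and -0.08.

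Of 11 other pericyte genes 4 rose and 1 fell in RVF+ and 4 rose and 0 fell in RVF, with a median of 0.08 in each. All but Higd1b and Foxs1, 9 of the 11, were at or above the median level of all genes. With the filter on dim genes 2 rose in each comparison. Colec11 rose by 0.82 ± 0.18 and 0.87 ± 0.19, the transcription factor Foxs1 by 0.44 ± 0.11 and 0.50 ± 0.12, the connexin Gja4 by 0.40 ± 0.11 and 0.38 ± 0.12, and Higd1b by 0.48 ± 0.13 and 0.46 ± 0.13. Notch3, Kcnj8, Abcc9, Anpep, Cox4i2 and Steap4 did not pass in either comparison. Their differences in RVF+ were 0.08, -0.14, -0.37, 0.51, -0.28 and -0.12, and in RVF 0.21, -0.00, -0.04, 0.08, -0.04 and -0.11. The Higd1b call in RVF ended without RVF 13 (adjusted p = 0.095) or RVF 15 (adjusted p = 0.09), and the Gja4 call in RVF without any 1 of CON 3, CON 4, CON 6, RVF 13 and RVF 15 (adjusted p = 0.0583 to 0.144). Vtn, the vitronectin gene, fell in RVF+ by 0.65 ± 0.17 (adjusted p = 0.00784), or by 0.41 without RVF+ 8 (adjusted p = 0.00221), and had -0.22 ± 0.18 in RVF (adjusted p = 0.45). Of 8 vascular smooth muscle genes Itga8 (0.85 ± 0.19, adjusted p = 0.00298) and Tagln (0.63 ± 0.22, adjusted p = 0.0417) rose in RVF+, and 0 passed in RVF, where Itga8 had 0.61 ± 0.21 (adjusted p = 0.0511) and passed without any 1 of CON 1, RVF+ 8, RVF+ 10 and RVF+ 12. The Tagln call ended in 12 of the 23 alternatives, 9 of them the omission of 1 array (CON 2, 3, 4, 6 or 7, RVF+ 8 or 9, RVF 13 or 14), with adjusted p = 0.0503 to 0.113. Without RVF+ 8 the Tagln difference was 0.38.

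The 2 PDGF receptors were set beside their ligands and signalling partners. Of 18 such genes 5 rose and 4 fell in RVF+, with a median of 0.06, and 1 rose and 4 fell in RVF, with a median of 0.07. Pdgfa, a ligand of Pdgfra, fell by 0.56 ± 0.08 in RVF+ (adjusted p = 5.33e-05) and by 0.48 ± 0.08 in RVF (adjusted p = 0.000645), with all arrays of both groups below all CON arrays, as in 7.63% of all genes in RVF+ and 9% in RVF. Pdgfc, another ligand of Pdgfra, fell by 0.57 ± 0.13 (adjusted p = 0.00263) and 0.59 ± 0.13 (adjusted p = 0.0055). The Pdgfrb ligands Pdgfb, at 0.08 ± 0.13 and 0.11 ± 0.14, and Pdgfd, at -0.07 ± 0.13 and -0.06 ± 0.14, did not pass in either. Plat, the tissue plasminogen activator that activates the PDGF-C protein, rose by 0.84 ± 0.14 in RVF+ (adjusted p = 0.00025) and by 0.49 ± 0.15 in RVF (adjusted p = 0.0302), a call in RVF that ended without any 1 of CON 3, CON 4, CON 7 or the RVF arrays 13, 14 and 16 (adjusted p = 0.0542 to 0.0828).

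Among the signalling partners the docking protein Gab1 fell by 0.45 ± 0.08 in RVF+ and 0.50 ± 0.09 in RVF. Sos1 fell in RVF+ by 0.23 (adjusted p = 0.0433), and Pik3r1, a regulatory subunit of phosphoinositide 3-kinase, fell in RVF by 0.51 ± 0.11. Shc1 (0.55), Cbl (0.37), Src (0.32) and the receptor-like gene Pdgfrl (0.32) rose in RVF+. In RVF they had 0.29, 0.20, 0.26 and 0.24, and Sos1 had -0.21, and none of the 5 passed. Src passed in RVF in 3 alternatives, 1 of them without RVF+ 8, Sos1 in 2, 1 of them without RVF+ 8, and Pdgfrl with the mean of its probe sets (0.41, adjusted p = 0.00211). The call of Src ended without RVF+ 8 or RVF+ 9 (adjusted p = 0.0523 to 0.0662), that of Pdgfrl in 10 alternatives (adjusted p = 0.0514 to 0.0955) and that of Sos1 in 13 (adjusted p = 0.0509 to 0.128). Of these, 6 for Pdgfrl (CON 1, 4, 5 or 7, RVF+ 10 or 11) and 11 for Sos1 (CON 1, 2, 3, 4 or 6, RVF+ 8, 9 or 12, RVF 14, 15 or 16) left out 1 array. The list's count of genes that rose in RVF was 0 to 3 over the alternatives. The ligands Pdgfb, Pdgfc and Pdgfd and the genes of these short counts were named to complete the pathway, outside the rule for named genes.

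**Figure D4:**
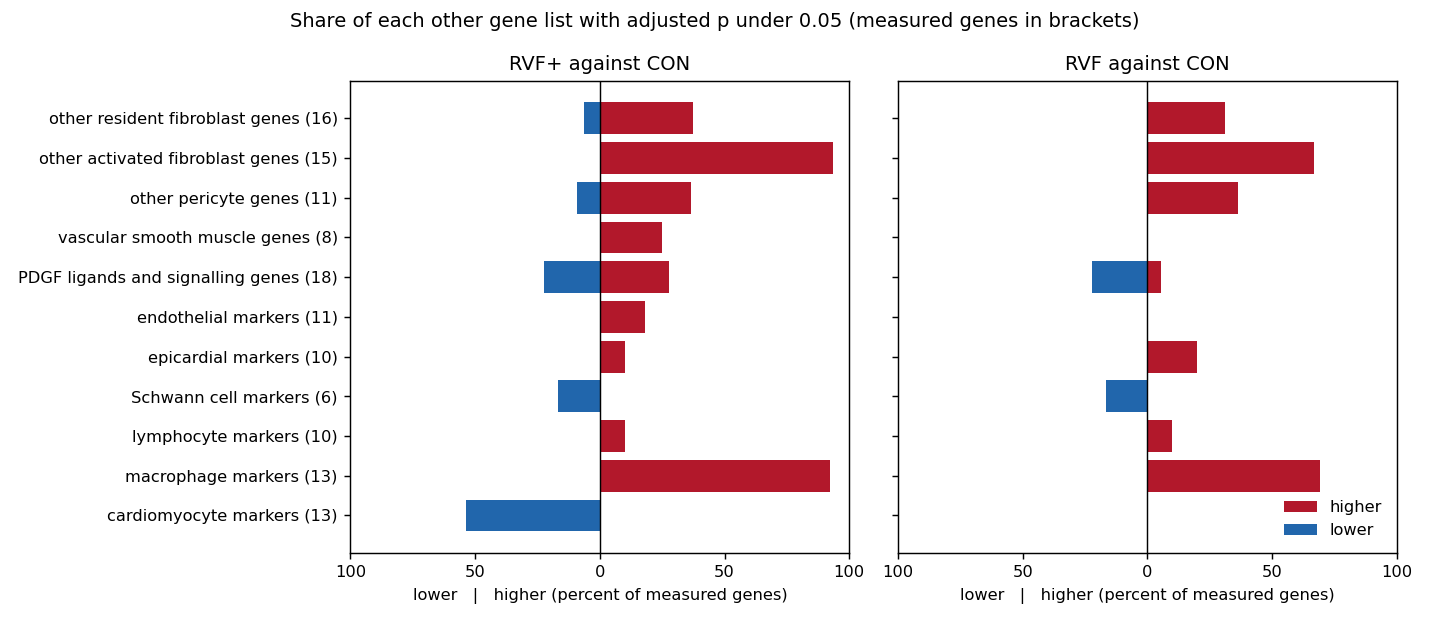
Percent of the measured genes of each other list that were higher (right of 0) or lower (left of 0) at an adjusted p under 0.05, in RVF+ against CON and in RVF against CON. Activated fibroblast genes (14 and 10 of 15) and macrophage markers (12 and 9 of 13) have the largest shares of genes higher in both comparisons.

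Markers of other cells moved with the results as follows, and their part in the markers' differences was not tested. Macrophage markers rose in 12 of 13 cases in RVF+ and 9 of 13 in RVF, and 0 fell in either, with summed intensities of 2190 to 6136 in RVF+ and 1864 to 2601 in RVF against 1104 to 1606 in CON. Without RVF 14 the count in RVF was 5, and without RVF+ 8 it was 12. C1qa, a complement gene of macrophages, rose by 1.27 ± 0.14 and 1.04 ± 0.15. Cardiomyocyte markers fell in 7 of 13 cases in RVF+ and 0 in RVF (3 without RVF+ 8), with sums of 34113 to 49492, 48011 to 50462 and 53792 to 57062 in RVF+, RVF and CON (34113 in RVF+ 8 and at least 44724 in the other RVF+ arrays). Myh6, the alpha myosin heavy chain, fell by 1.34 ± 0.27 in RVF+ (0.93 without RVF+ 8) and had -0.78 ± 0.29 in RVF (adjusted p = 0.0745, and 1.43e-05 without RVF+ 8).

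Mcam is also an endothelial gene. Of 11 endothelial markers 2 rose in RVF+, Vwf by 1.08 ± 0.17 and Esam by 0.54 ± 0.13, and 0 passed in RVF. Over all genes 14.1% rose in RVF+ and 8.86% in RVF. The median of the list was 0.16 in RVF+ and -0.01 in RVF. Without RVF+ 8 the count in RVF+ was 4 and the median 0.26.

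Thy1 is also carried by lymphoid and neural cells. Of 10 lymphocyte markers 1, Cd79b, rose in each comparison, by 0.39 and 0.52, calls that ended without RVF+ 10, 11 or 12 or CON 3, 4 or 6 in RVF+ (adjusted p = 0.0508 to 0.103) and without RVF 13 or 15 in RVF (adjusted p = 0.0704 to 0.0722). Without RVF+ 8, 1 of the 10 rose and 2 fell in RVF+, and 3 rose and 1 fell in RVF. The T cell gene Cd3d was at most 3.62 in RVF+, 3.79 in RVF and 3.69 in CON, below the 5.57 of the median gene. Cd3g, another T cell gene, had 0.54 ± 0.20 in RVF+ (adjusted p = 0.054) and 0.55 ± 0.22 in RVF (adjusted p = 0.0886). It passed in 4 alternatives of each comparison, and its highest arrays were 5.06 in RVF+, 4.53 in RVF and 3.91 in CON. Summed over the lymphocyte markers, intensities were 199 to 434 in RVF+, 231 to 273 in RVF and 199 to 247 in CON. The 434 was in RVF+ 8, the array highest in Thy1, with at most 272 in the other RVF+ arrays. Of 6 Schwann cell markers, which bear on Thy1 and Cspg4, 0 rose and 1, Gfra3, fell in each comparison, by 0.97 ± 0.17 and 0.86 ± 0.19. Only 1 of these 6 and 1 of the 10 lymphocyte markers were at or above the median level of all genes. Most genes of both lists were thus dim, and their counts say little about these cells. Of 10 epicardial markers, with 2 at or above that level, 1 rose in RVF+ (Wt1, 0.55 ± 0.16) and 2 in RVF (Upk1b, 0.57, and Tbx18, 0.47). For Wt1, 4 of the 5 RVF+ arrays lay above all CON arrays and 1 lay below all of them. Wt1 in RVF had 0.49 ± 0.17 (adjusted p = 0.0536), with all 4 arrays above CON, and passed in 5 alternatives, among them without RVF+ 8 or RVF+ 10. The Upk1b call ended without CON 2, 3 or 4 or RVF 14 (adjusted p = 0.0518 to 0.114) and the Tbx18 call without CON 2, 3 or 7 or RVF 14 or with quantile normalization (adjusted p = 0.0539 to 0.119), and without RVF 14 their differences were 0.32 and 0.25. The count in RVF was 4 without RVF+ 8.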

How the data were processed

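For every array the authors deposited linear intensity values, 1 for each probe set, made with RMA per the submitters' processing notes. Its software version and the builds are not given in the sources. Labelled cDNA came from 500 ng of total RNA, per the labels' protocols. The deposited intensity values ran from 2.202 to 10294, with array medians of 27.1 to 29.3, and were converted to log2. No detection calls were used, and precision is limited by how many arrays there are. At most 0.00342% of values were identical between 2 arrays, so none was a copy.

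Probe sets with exactly 1 symbol in the array annotation were used (18644 of 29214; 962 had several symbols and 9608 none listed), and the one with the highest mean was kept per gene, which gave 17245 genes. Identifiers of 18460 probe sets matched RefSeq (GRCr8). Group means were fitted to all 16 arrays with limma 3.58.1 (lmFit, eBayes) in R 4.3.3, with 13 residual and 4.45 prior degrees of freedom. All adjusted p-values are two-sided limma values after Benjamini-Hochberg adjustment over all genes. The procedure was tested on simulated data in which each gene had the same spread in all groups. Spreads in these arrays could differ, as for Thy1 (SD 0.63 in RVF+ and 0.15 in RVF), and that was not simulated.

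The 10 markers, the 11 other lists (131 of 143 genes measured) and the rule for named genes were chosen with earlier results of these data known. The rule takes every marker, up to 3 genes per list and comparison with the smallest p, and the 3 genes most alike to each marker. Dpep1, Fbln1 and Gja4 were also named, outside the rule. Not every gene it takes was described above. Of those left out, Lmod1, Synpo2, Egfl7, Ptprb, Krt8, Sox10, Foxd3, Erbb3 and Cd5 passed in neither comparison with CON. Adgre1, C1qb and C1qc rose in both, and Tnni3, Ryr2, Pln and Nkx2-5 fell in RVF+ only. Alternatives were quantile normalization, median centring, a filter on dim genes, mean probe sets, fits on 2 groups, trend and robust moderation (statmod 1.5.0), array weights and leaving out each array.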

Additional observations from a re-analysis of the deposited data

Results flagged for a closer look

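In 39 sets of values (the 10 markers and 3 class means in each group), 3 arrays lay far from the rest of their group, and chance flags about 1 in 20 such sets. Mcam in RVF+ 11 was at 8.16, with the next RVF+ array at 8.79; without that array the difference from CON was 0.96. Cspg4 in RVF 16 was at 7.35, with the next RVF array at 7.57; without it the difference from CON was 0.50. The mean of the activated class in CON 4 was 0.31, with the next CON array at 0.05.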

How the results depend on the processing

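No paired analysis was possible because the labels number the samples 1 to 16 without repeating a number between groups. The counts of markers called (6, 6 and 0 higher, 0 lower in each comparison) were identical in all 23 alternatives. All genes called in RVF against CON numbered 2957, but 4466 with only the compared groups and 4688 with array weights. Between RVF+ and RVF the count of 0 was 0 to 3 when single arrays were left out. Median centring gave 1998 higher and 3004 lower genes in RVF+ against CON, where the main setting gave 2423 and 2348.

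Sign changes occurred only in differences that did not pass. With median centring Rgs5 in RVF+ against CON was -0.011 and Tcf21 between RVF+ and RVF -0.0017; with array weights Tcf21 was -0.025, and with quantile normalization Thy1 between RVF+ and RVF was 0.013. Leaving out single arrays gave -0.10 to 0.016 for Pdgfra and -0.0097 to 0.13 for Rgs5 in RVF+ against CON, and -0.14 to 0.087 for Pdgfd and -0.093 to 0.14 for Dpep1 in RVF against CON. Between RVF+ and RVF it gave -0.24 to 0.19 for Thy1, -0.027 to 0.14 for Fap and -0.10 to 0.091 for Tcf21. The cause was not tested.

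Over the alternatives, counts of the short lists varied. Genes that rose in RVF against CON numbered 0 to 3 for PDGF and lymphocyte genes, 0 to 4 for epicardial, 2 to 4 for pericyte and 0 to 1 for smooth muscle genes. In RVF+ against CON 2 to 4 pericyte, 1 to 2 smooth muscle, 0 to 2 lymphocyte and 1 to 2 epicardial genes rose. There 6 to 11 cardiomyocyte genes fell, with 11 under median centring.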
